A study of Mus musculus with 12 samples.

Results

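A set of 10 genes of the blood vessel wall was followed in mouse skin. They are the endothelial markers Pecam1 and Cdh5, the vascular endothelial growth factor Vegfa with its receptors Kdr and Flt1, the angiopoietin receptor Tek with its ligand Angpt2, the sprouting marker Esm1, and the peptide Apln with its receptor Aplnr. They were selected by name from the 55453 genes of the count file, with earlier results of these groups known, so their differences between groups are given as a description and not as tests. The skin came from 12 mice on a C57BL/6 background, with 3 mice in each of 4 groups. WT mice were C57BL/6J, and Thy-1–KO mice lacked the surface glycoprotein Thy-1 in every cell (a global knockout) on the same background. The methods give the Thy-1–KO mice as females aged 8 to 12 weeks, and state neither sex nor age for the WT mice beyond calling controls littermates. The back skin was injected s.c. every day over as many as 14 days, either of PBS (WT PBS and KO PBS) or of bleomycin at 10 mg/kg/d (WT BLM and KO BLM), and skin was taken at day 21. Bleomycin is a DNA-damaging drug used to induce fibrosis of the injected skin.

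Blood vessels are lined by endothelial cells, which are held together by VE-cadherin (Cdh5) and carry CD31 (Pecam1) on their surface. Vessels grow by sprouting when VEGF-A binds VEGFR2 (Kdr) on endothelial cells, while VEGFR1 (Flt1) binds the same ligand tightly and limits its supply. Angiopoietin 1 keeps vessels quiet through the receptor Tie2 (Tek), and angiopoietin 2 (Angpt2), released by activated endothelium, can oppose it. Endocan (Esm1) and apelin (Apln) are made by the tip cells that lead a sprout, and the apelin receptor (Aplnr) is found on veins and growing capillaries. Rarefied and abnormal vessels are a feature of systemic sclerosis, the human disease that the bleomycin model is used for.

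In GENCODE M21 (GRCm38) each of the 10 symbols matched 1 gene. Pecam1 (ENSMUSG00000020717.19) lies at chr11:106654217-106750628 on the minus strand, and Cdh5 (ENSMUSG00000031871.9) at chr8:104101625-104144511 on the plus strand. Kdr and Flt1 share chromosome 5, at chr5:75932827-75978458 and chr5:147561604-147726011, both on the minus strand. Tek lies at chr4:94739289-94874976 (plus), Vegfa at chr17:46016993-46032369 (minus) and Angpt2 at chr8:18690263-18741562 (minus). Esm1 lies at chr13:113209659-113218098 (plus), Apln at chrX:48025146-48034853 (minus) and Aplnr at chr2:85136225-85139923 (plus).

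The RefSeq promoter table (GRCm38.p6) held an entry for 6 of the 10 genes: Tek, Kdr, Flt1, Vegfa, Esm1 and Apln. The 250 bases before the start site are shown for the genes with the largest bleomycin difference (Apln and Esm1) and for the receptors whose level did not follow the other endothelial genes (Kdr and Tek). Capitals mark ACGTG, and the near form GCGTG, cores bound by hypoxia-inducible factors, and GGAAG, a core bound by ETS factors, which control many endothelial genes. Each was searched on both strands, and a match on the other strand appears as the reverse complement. TATAAA, the TATA box, and TGANTCA, the letters bound by AP-1, were searched as well and are not capitalized. Sequences run 5′ to 3′ on the gene's strand, and base 250 stands just before the start site.
Apln (chrX:48034854-48035103, minus): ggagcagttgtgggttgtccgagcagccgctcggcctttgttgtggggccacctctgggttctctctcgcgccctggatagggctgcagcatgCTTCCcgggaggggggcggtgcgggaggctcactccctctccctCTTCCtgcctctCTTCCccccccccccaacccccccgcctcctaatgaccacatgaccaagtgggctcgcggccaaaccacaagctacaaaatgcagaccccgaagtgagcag
Esm1 (chr13:113209409-113209658, plus): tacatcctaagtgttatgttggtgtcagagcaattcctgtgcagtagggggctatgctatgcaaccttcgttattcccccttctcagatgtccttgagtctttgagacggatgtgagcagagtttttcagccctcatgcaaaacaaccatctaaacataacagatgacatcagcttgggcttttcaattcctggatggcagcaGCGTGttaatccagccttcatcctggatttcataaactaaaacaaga
Kdr (chr5:75978456-75978705, minus): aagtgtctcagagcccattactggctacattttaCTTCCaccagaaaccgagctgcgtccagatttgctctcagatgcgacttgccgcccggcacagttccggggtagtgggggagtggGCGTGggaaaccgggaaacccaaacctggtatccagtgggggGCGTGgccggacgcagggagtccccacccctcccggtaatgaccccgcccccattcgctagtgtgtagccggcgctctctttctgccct
Tek (chr4:94739039-94739288, plus): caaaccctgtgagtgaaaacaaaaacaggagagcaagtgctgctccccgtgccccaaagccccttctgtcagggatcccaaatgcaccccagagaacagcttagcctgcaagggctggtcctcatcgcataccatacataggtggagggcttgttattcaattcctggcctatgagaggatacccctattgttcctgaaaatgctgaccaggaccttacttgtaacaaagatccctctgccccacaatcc
The Apln window held GGAAG on the opposite strand at bases 94, 138 and 150 and neither hypoxia core, and its share of G and C was 65.2%. The Esm1 window held GCGTG once, at base 204, and had the lowest share of G and C of the windows, 44%. Kdr held GCGTG at bases 120 and 162 and GGAAG on the opposite strand at base 35. The Tek window held none of these letters. Flt1 (not shown) had GCGTG on the opposite strand at base 67, GGAAG at bases 123, 180 and 199 and TATAAA at base 220, and the first Vegfa entry had GGAAG on the opposite strand at base 227. The second Vegfa entry held ACGTG on the opposite strand at base 40, GCGTG at base 33 and GGAAG at base 241. Of 32851 promoter windows of the same length in the table, 38.6% held a hypoxia core of either form, 64.1% held GGAAG, 12.4% held TATAAA and 6.75% held TGANTCA, so that the first matches are common, and a match is only a description of the letters.

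Library totals ran from 26473700 to 38890450 counts (median 31494965), and 18311 genes, among them all 10 studied here, had enough counts to be tested. Levels are given as CPM, the counts scaled to a common library total with TMM factors. Thy1, the targeted gene, was at 104 to 150 CPM in WT PBS mice and 231 to 416 in WT BLM mice, against 45.6 to 96.9 in KO PBS mice and 84.7 to 128 in KO BLM mice. It was thus lower in KO than in WT skin under either treatment but not at 0. Which part of the gene the knockout removes is not given in the sources used here. Mice stood apart within groups: 29 genes of the growing hair follicle had a mean log2 CPM of 9.34 to 10.1 in WT PBS mice, 10.03 in KO PBS mouse 136 and 8.95 in KO BLM mouse 141, against 6.09 and 4.94 in KO BLM mice 144 and 143 and at most 3.42 in the other mice. Results below are therefore also given without mouse 136. The KO PBS mice then left, 137 and 139, had hair means of -0.40 and 2.53, far below every WT PBS mouse. Genotype under PBS and hair level cannot be told apart in those fits.

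The skin held clear endothelial signal. All 30 of a list of other endothelial genes (such as Emcn, Tie1, Eng, Cldn5 and Vwf) passed the filter on low counts. Their mean log2 CPM was 3.28 to 3.44 in WT PBS mice and 3.54, 4.91 and 4.33 in WT BLM mice 145, 146 and 147. It was 3.23 in KO PBS mouse 136, against 4.28 and 4.11 in mice 137 and 139, and 3.93 to 4.06 in KO BLM mice. In these bulk samples a change in the number of endothelial cells and a change in the RNA of each cell cannot be told apart.

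Levels between genes were compared per kb of merged exons. In WT PBS skin Vegfa was highest at 11.6 ± 3.57 CPM per kb (SD, n = 3), followed by Cdh5 at 8.72 ± 0.27 and Pecam1 at 7.72 ± 0.57. Aplnr (4.09 ± 0.34), Tek (3.43 ± 0.81) and Kdr (2.74 ± 0.10) came next, then Flt1 (1.703 ± 0.22), Angpt2 (1.195 ± 0.18), Apln (0.925 ± 0.206) and Esm1 (0.432 ± 0.157). In that order the values of neighbors overlapped for Vegfa and Cdh5, Aplnr and Tek, Tek and Kdr, and Angpt2 and Apln. In WT BLM skin Apln stood above Angpt2, Kdr, Tek and Flt1 at 7.10 ± 1.68 CPM per kb and Esm1 was still lowest at 1.69 ± 0.21. The longest transcript was also used as the length in place of merged exons, for means over all mice only. The mean level of Pecam1 was then 23.1 instead of 12.8 CPM per kb, that of Kdr 4.79 instead of 3.15 and that of Flt1 3.99 instead of 2.04. Among these means over all mice Pecam1 came before Vegfa (18.0), and both Kdr and Flt1 came before Tek (3.51). Those places therefore depend on the length used, and the order within WT PBS skin was not recomputed.

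In what follows, values are listed in the mouse order 159, 160 and 161 for WT PBS, 145, 146 and 147 for WT BLM, 136, 137 and 139 for KO PBS, and 141, 143 and 144 for KO BLM.

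**Figure D1:**
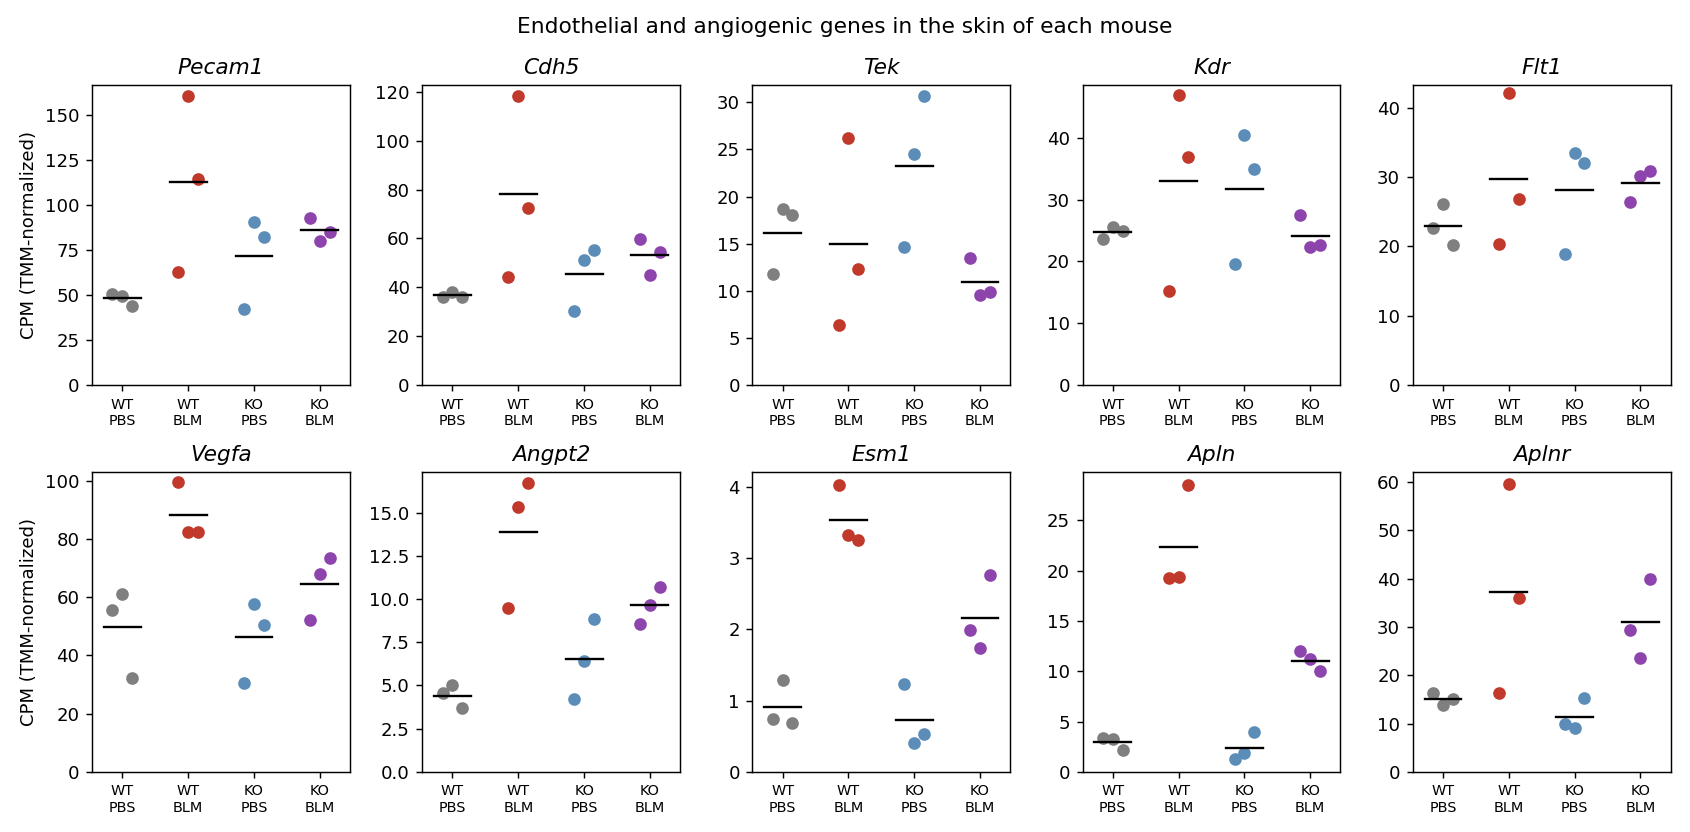
Level of each of the 10 genes in the skin of each mouse, in CPM on a linear axis from 0. Points are mice, in the order of their numbers within a group, and bars are group means. Apln, Esm1, Vegfa, Angpt2, Pecam1 and Cdh5 were higher in every WT BLM mouse than in every WT PBS mouse, while Tek, Kdr, Flt1 and Aplnr overlapped.

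The endothelial markers Pecam1 and Cdh5 were higher in bleomycin-treated WT skin and moved together from mouse to mouse. Pecam1 was at 50.6, 49.6 and 44.0 CPM in WT PBS mice and at 62.6, 161 and 115 CPM in WT BLM mice. In KO skin it was at 42.1, 90.6 and 82.2 CPM under PBS and at 93.0, 80.1 and 85.0 CPM under bleomycin. The WT groups did not overlap, with mouse 145 nearest to the PBS mice, while the KO groups did, and PBS mouse 136 was the lowest of all 12 mice. Cdh5 had the same highest and lowest mouse, at 36.1, 37.96 and 35.9 CPM in the WT PBS mice and 44.4, 118 and 72.3 CPM in the WT BLM mice. In KO skin Cdh5 was at 30.4, 51.4 and 55.2 CPM under PBS and 59.8, 44.9 and 54.4 CPM under bleomycin. Their log2 ratio (Pecam1 over Cdh5) stayed between 0.296 and 0.835 in all 12 mice. The log2 fold change of WT BLM against WT PBS was 1.23 ± 0.33 (SE) for Pecam1 and 1.10 ± 0.32 for Cdh5, and that of KO BLM against KO PBS was 0.26 ± 0.33 and 0.22 ± 0.32.

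The receptors Kdr and Flt1 did not separate the groups in either genotype. Kdr was at 23.7, 25.5 and 24.9 CPM in WT PBS mice, 15.2, 47.0 and 36.9 in WT BLM mice, 19.6, 40.5 and 35.0 in the KO PBS group, and 27.6, 22.3 and 22.6 in the KO BLM group. The WT BLM mice spanned the widest range, with mouse 145 below and mice 146 and 147 above all WT PBS mice. Flt1 was at 22.6, 26.2 and 20.2 CPM in WT PBS mice, 20.4, 42.1 and 26.8 in WT BLM mice, 18.9, 33.4 and 31.9 in the KO PBS group, and 26.4, 30.2 and 30.9 in the KO BLM group. The log2 fold change in WT was 0.42 ± 0.36 for Kdr and 0.37 ± 0.27 for Flt1, and in KO -0.39 ± 0.36 and 0.05 ± 0.27. Without mouse 146 the WT values were 0.08 ± 0.37 for Kdr and 0.04 ± 0.24 for Flt1. Without mouse 145 they were 0.76 ± 0.26 and 0.58 ± 0.26. Whether these receptors differ from Pecam1 in their WT change was not tested.

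Their ligand Vegfa, which epidermal and other cells of skin make besides endothelium, was higher in WT BLM skin. It was at 55.7, 61.1 and 32.3 CPM in WT PBS mice and at 99.6, 82.2 and 82.3 CPM in WT BLM mice, without overlap. In KO mice it was at 30.4, 57.7 and 50.5 CPM under PBS and at 52.1, 67.8 and 73.3 CPM under bleomycin, and KO BLM mouse 141 lay among the PBS mice. The log2 fold change was 0.82 ± 0.27 in WT and 0.48 ± 0.27 in KO. All 3 KO BLM mice lay below all 3 WT BLM mice, with a log2 fold change of -0.45 ± 0.27. Mouse 145 had the highest Vegfa of all 12 mice and the lowest Kdr.

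Angpt2 and its receptor Tek went apart. Angpt2 was at 4.56, 5.0003 and 3.67 CPM in WT PBS mice and at 9.51, 15.4 and 16.7 CPM in WT BLM mice, so that the lowest bleomycin value was above the highest PBS value. In KO mice it was at 4.22, 6.43 and 8.88 CPM under PBS and at 8.57, 9.64 and 10.7 CPM under bleomycin, with mouse 139 overlapping mouse 141. The log2 fold change was 1.65 ± 0.29 in WT and 0.57 ± 0.29 in KO. Tek was at 11.8, 18.7 and 18.0 CPM in WT PBS mice, 6.42, 26.2 and 12.3 in WT BLM mice, 14.7, 24.5 and 30.6 in the KO PBS group, and 13.5, 9.58 and 9.86 in the KO BLM group. Its WT groups overlapped (log2 fold change -0.11 ± 0.45), while every KO BLM mouse was below every KO PBS mouse (-1.08 ± 0.45). In WT the value of Tek depended on mouse 146, without which it was -0.79 ± 0.38, and on mouse 145, without which it was 0.25 ± 0.38. The log2 ratio of Angpt2 to Tek, which compares the 2 genes within a mouse, was -2.28 to -1.36 in WT PBS and -1.92 to -1.78 in KO PBS mice, against -0.767 to 0.563 in WT BLM and -0.648 to 0.118 in KO BLM mice. Every bleomycin-treated mouse therefore lay above every PBS mouse of either genotype in this ratio.

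Esm1 and Apln, the genes of sprouting tips, showed the largest differences among the 10. Esm1 was low, at 0.744, 1.28 and 0.688 CPM in WT PBS mice and 4.03, 3.33 and 3.25 CPM in WT BLM mice. In KO mice it was at 1.23, 0.400 and 0.536 CPM under PBS and at 1.99, 1.74 and 2.76 CPM under bleomycin. Bleomycin and PBS mice did not overlap in either genotype, and the highest Esm1 among KO PBS mice was in mouse 136. Its log2 fold change was 1.96 ± 0.42 in WT (3.90-fold) and 1.58 ± 0.42 in KO (2.998-fold), and in KO it was 2.20 ± 0.37 without mouse 136.

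Apln was at 3.35, 3.22 and 2.17 CPM in WT PBS mice and at 19.3, 19.4 and 28.5 CPM in WT BLM mice. In KO mice it was at 1.23, 1.91 and 3.96 CPM under PBS and at 11.998, 11.2 and 10.002 CPM under bleomycin. The 4 groups thus formed 3 levels: all 6 PBS mice were below 4 CPM, the KO BLM mice lay close together around 11.1 CPM (SD 1.004), and the WT BLM mice were all higher. The log2 fold change was 2.94 ± 0.39 in WT (7.69-fold) and 2.22 ± 0.38 in KO (4.66-fold), and KO BLM against WT BLM gave -1.02 ± 0.36. Aplnr was at 16.4, 13.9 and 15.1 CPM in WT PBS mice, 16.3, 59.6 and 36.1 in WT BLM mice, 9.81, 9.001 and 15.4 in the KO PBS group, and 29.4, 23.6 and 40.0 in the KO BLM group. WT BLM mouse 145 was within the WT PBS range, and the KO groups did not overlap. The receptor's log2 fold change was 1.302 ± 0.40 in WT and 1.44 ± 0.40 in KO. Apela, the second known ligand of this receptor, had at most 5 counts in any mouse and was not tested.

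**Figure D2:**
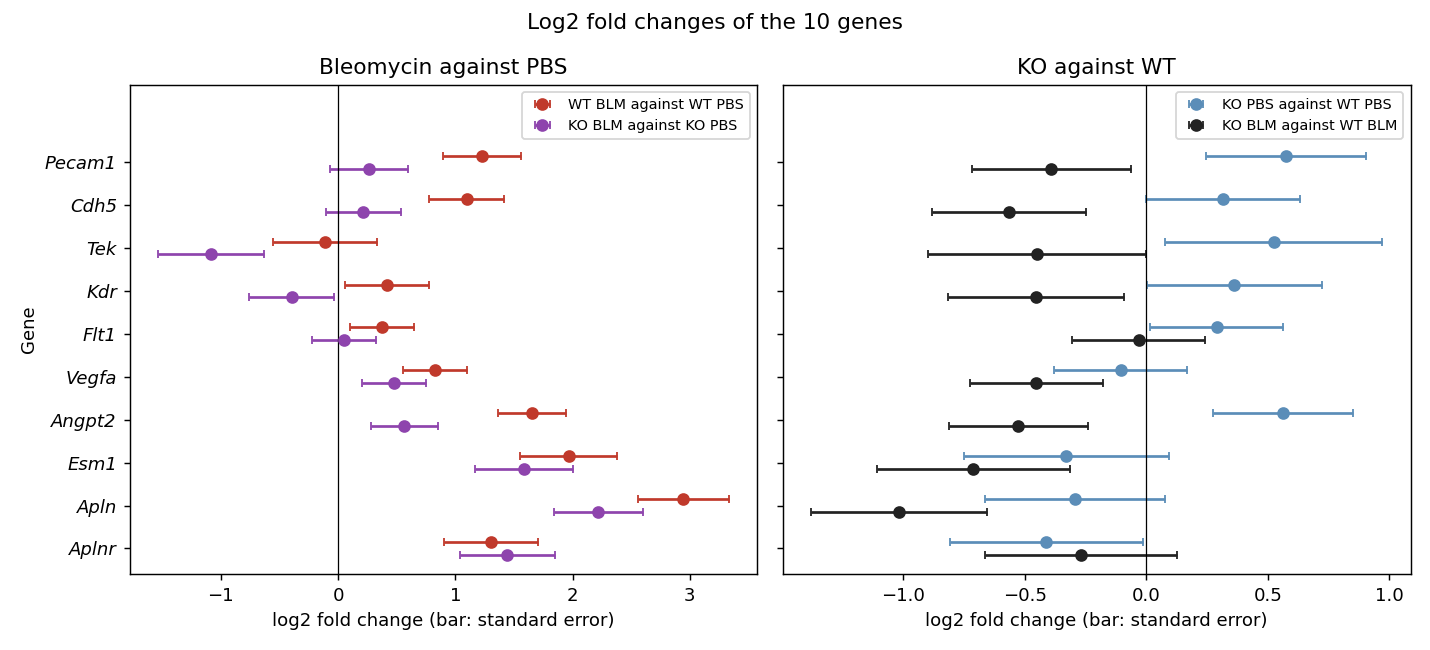
Log2 fold changes of the 10 genes from one model of the 4 groups, with standard errors as bars. Left, bleomycin against PBS in each genotype, from -1.08 (Tek in KO) to 2.94 (Apln in WT). Right, KO against WT under each treatment, where every value of KO BLM against WT BLM is below 0.

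In the comparison of WT BLM with WT PBS, edgeR's quasi-likelihood test over all genes, at a Benjamini-Hochberg adjusted p under 0.05, called 7 of the 10 genes higher and 0 lower. Called were Pecam1, Cdh5, Vegfa, Angpt2, Esm1, Apln and Aplnr. The same test called 34% of all genes tested and 19.8% higher, and the WT groups did not overlap in 57% of all genes, against 6 of these 10. The median log2 fold change was 1.16 over the 10 genes and 0.02 over all genes. Because the genes were chosen with this comparison known, nothing is read from these shares. Leaving out any 1 WT PBS mouse, or WT BLM mouse 146 or 147, left 3 called genes (Angpt2, Esm1 and Apln) and 13.9% to 19.8% of all genes called. Without mouse 139, 143, 144 or 145 there were 6, all but Vegfa, in fits that called 21.5% to 32.8% of all genes. With the mean of the hair list as a covariate 0 of the 10 and 9 of all genes were called. In that fit the log2 fold change was 0.10 ± 0.33 for Vegfa, 2.28 ± 0.55 for Apln, 3.004 ± 0.52 for Esm1, 1.17 ± 0.42 for Angpt2 and 0.83 ± 0.48 for Pecam1.

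In KO BLM against KO PBS 1 of the 10 genes was called, Apln, against 0.306% of all genes. KO BLM and KO PBS mice were fully separated for 4 of the 10 (Apln, Esm1 and Aplnr higher, Tek lower) and for 19.3% of all genes, and the median log2 fold change was 0.37. The call of Apln did not hold when mouse 137, 139, 143 or 144 or any 1 WT mouse was left out, nor under RLE or upper-quartile normalization, a filter at a mean of 1 CPM or a fit of the 2 groups alone, while its log2 fold change stayed between 1.85 and 2.81 over all alternatives. Without mouse 136, Esm1 and Apln were called, along with 14% of all genes, and Pecam1 and Cdh5 were both at -0.01 (SE 0.29 and 0.31). DESeq2 called Esm1, Apln and Aplnr and 5.95% of all genes. In KO PBS against WT PBS edgeR called 0 of the 10 genes (0 at an unadjusted p under 0.05 and 0 by DESeq2), against 0.0655% of all genes. The groups overlapped for all 10 genes and did not for 18.9% of all genes. Without mouse 136, which had the lowest Pecam1, Cdh5, Flt1, Vegfa and Apln of the 12 mice, Pecam1 (0.84 ± 0.29) and Angpt2 (0.80 ± 0.26) were called higher in KO PBS skin, in a fit that called 36.7% of all genes.

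Under bleomycin all 10 genes had a lower estimate in KO than in WT skin, from -0.03 ± 0.27 for Flt1 to -1.02 ± 0.36 for Apln, with a median of -0.45. EdgeR called 0 of them (1 at an unadjusted p under 0.05, Apln, and 0 by DESeq2), against 0.0928% of all genes. KO and WT mice did not overlap for Vegfa, Esm1 and Apln, all lower in KO, and for 27.5% of all genes. Without WT BLM mouse 146, which had the highest Pecam1, Cdh5, Kdr, Flt1 and Aplnr of all 12 mice, 3 of the 10 estimates were above 0 and the median was -0.13. Without WT BLM mouse 145, 0 were above 0 and the median was -0.70, with 5 at an unadjusted p under 0.05 and 0 called. How many of all genes reached that p in that fit was not counted, and with all mice it was 3043 of 18311. This comparison shares its mice with both bleomycin comparisons.

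The difference between the bleomycin responses (KO minus WT) was below 0 for 9 of the 10 genes, with Aplnr as the exception at 0.14 ± 0.56. The lowest were Angpt2 (-1.09 ± 0.41), Tek (-0.97 ± 0.63) and Pecam1 (-0.96 ± 0.47). EdgeR called 0 of the 10 (1 at an unadjusted p under 0.05, Angpt2, and 0 by DESeq2), and it called 0% of all genes (5687 of 18311 at an unadjusted p under 0.05). Without KO PBS mouse 136, Angpt2 (-1.32 ± 0.35) and Pecam1 (-1.23 ± 0.39) were called, as were 39.9% of all genes, and Esm1 moved to 0.23 ± 0.45. Without WT BLM mouse 146 the median over the 10 genes was -0.44 instead of -0.77. Without WT BLM mouse 145 it was -0.99, with 5 of the 10 at an unadjusted p under 0.05 and 0 called. The share of all genes at an unadjusted p under 0.05 was not counted in that fit.

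**Figure D3:**
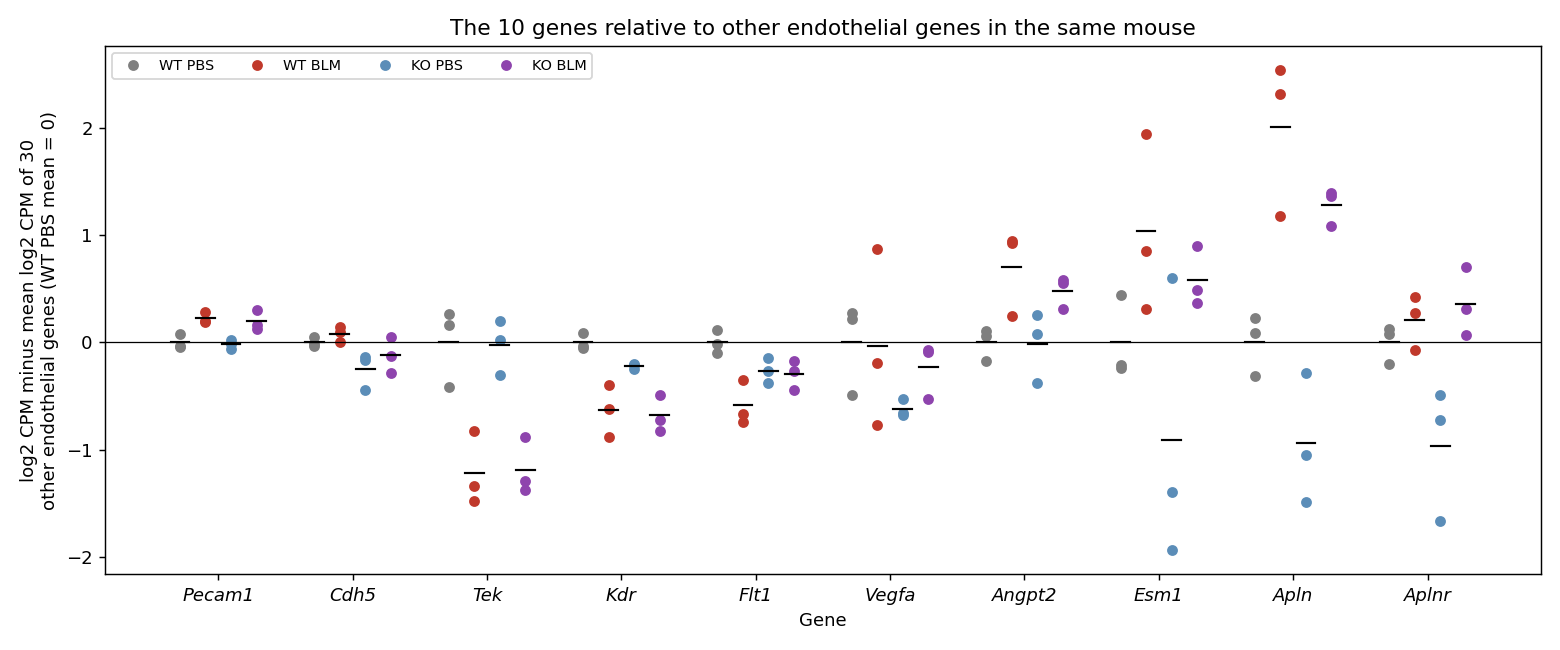
Each gene's log2 CPM minus the mean log2 CPM of 30 other endothelial genes in the same mouse, with the WT PBS mean set to 0. Points are mice and bars are group means. Under bleomycin Tek and Kdr lie below the WT PBS mice in both genotypes and Apln lies above them.

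Since the endothelial list as a whole varied between mice, each gene was also set against the mean log2 CPM of the 30 other endothelial genes in the same mouse. The list itself was at 3.54 to 4.91 in WT BLM and 3.28 to 3.44 in WT PBS mice. A gene that did not rise with it in WT therefore falls on this scale. The share of all genes that separate on this scale was not computed, and before this scaling the WT groups did not overlap in 57% of all genes. On this scale Pecam1 and Cdh5 differed little between bleomycin and PBS (0.22 and 0.08 in WT, 0.21 and 0.13 in KO), although every bleomycin-treated mouse was above every PBS mouse for Pecam1. Tek was lower by a mean of -1.22 in WT and -1.16 in KO, and every bleomycin-treated mouse was below every PBS mouse. Kdr was at -0.63 in WT and -0.46 in KO, likewise without overlap between PBS and bleomycin in either genotype. Flt1 was at -0.59 in WT, where the groups did not overlap, and at -0.03 in KO. Angpt2 was at 0.71 and 0.49, and its groups did not overlap in either genotype. Apln was at 2.01 in WT and 2.23 in KO and Esm1 at 1.04 and 1.49, though for Esm1 WT PBS mouse 160 and KO PBS mouse 136 overlapped the bleomycin mice. Aplnr stood at 0.21 in WT against 1.32 in KO, and its KO PBS mice were 0.96 below the WT PBS mice on average. Vegfa, which is not made mainly by endothelium, had no common direction on this scale (-0.03 and 0.39). With Pecam1 and Cdh5 as the reference in place of the list, the differences of the 8 other genes kept their direction, with Tek at -1.37 in WT and -1.33 in KO and Kdr at -0.79 and -0.63. Tek and Kdr again did not overlap in either genotype, but Angpt2 then overlapped in both. For Angpt2, WT BLM mouse 146 (-3.16) lay below WT PBS mouse 160 (-3.10), and KO BLM mouse 141 (-3.11) below KO PBS mouse 139 (-2.91).

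Among the 10 genes Cdh5 and Pecam1 were most alike over the 12 mice, with a root mean square difference of 0.158 in log2 CPM after centering each gene on its mean, and Kdr and Flt1 came next at 0.289. Apln and Tek were farthest apart at 1.79. Genes tested outside the 10 were ranked as well, without those named only by a model or clone number. Of these, the nearest to Cdh5 were the endothelial genes Tie1 (0.142), Myct1 (0.151), Eng (0.152), Mmrn2 (0.157) and Erg (0.164), against an SD of 0.509 for Cdh5 itself. Nearest to Vegfa (SD 0.493) were Adamtsl5 (0.178), Pvr (0.241), the glucose transporter gene Slc2a3 (0.243), Cep85 (0.246) and Slc39a13 (0.246). Apln (SD 1.43) was most like Cyp4f18 (0.382), Rrad (0.386), Ch25h (0.415), Ccn4 (0.421) and the chemokine gene Ccl2 (0.446). Esm1 (SD 1.02) was most like Gpr176 (0.426), Pmaip1 (0.459), Col12a1 (0.460), Ppm1n (0.470) and Exoc3l (0.475), a looser match relative to its own spread than that of Cdh5. These are descriptions over 12 mice that share the same 4 groups.

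The other genes of these pathways were taken from lists of names, and they were tested in the same edgeR fit. These lists, too, were chosen with earlier results of these data known. The counts of called list genes and their adjusted p, here and below, are therefore a description and not independent tests. In WT BLM against WT PBS, 15 of the 30 other endothelial genes were called higher and 0 lower, against 19.8% higher among all genes, and all 30 estimates were above 0 with a median of 1.03. The highest among the called were Cd93, a receptor on endothelial and myeloid cells (1.85 ± 0.33, adjusted p = 0.00563), Lyl1, a transcription factor of blood and endothelium (1.76 ± 0.42, adjusted p = 0.0144), and Ecscr, an endothelial surface protein (1.64 ± 0.36, adjusted p = 0.0109). Cd93 was at 20.1 ± 1.36 CPM under PBS and 72.7 ± 29.2 CPM under bleomycin in WT skin, and at 23.0 ± 9.21 and 46.5 ± 4.98 CPM in KO skin (SD, n = 3). The count fell to 3, 4 and 5 without WT PBS mouse 159, 160 and 161. It fell to 6 and 8 without WT BLM mouse 146 and 147, and these fits called 13.9% to 19.8% of all genes. It was 21 without mouse 145, against 21.5% of all genes. With the hair covariate it was 0, in a fit that called 9 of all genes. In KO BLM against KO PBS 0 of the 30 were called (2 at an unadjusted p under 0.05, 0 by DESeq2), with a median of 0.10. In KO PBS against WT PBS 0 were called (5 unadjusted, 0 by DESeq2) although all 30 estimates were above 0 (median 0.58), and without mouse 136 edgeR called 12, against 36.7% of all genes. In the difference between the responses all 30 were below 0 (median -0.88) and 0 were called (9 unadjusted, 5 by DESeq2, which called 17.8% of all genes). Without mouse 136 edgeR called 13 of the 30, against 39.9% of all genes. Without mouse 145 it called 0, with 25 at an unadjusted p under 0.05, and without mouse 146 it called 0, with 4. The share of all genes at an unadjusted p under 0.05 was not counted in these fits. With all mice it was 5687 of 18311 for this difference.

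Of 7 other VEGF ligands and receptors, 2 were called higher in WT BLM skin. These were the ligands Pgf (placental growth factor, 1.69 ± 0.38, adjusted p = 0.0118) and Vegfc, which acts on lymphatic vessels (1.22 ± 0.28, adjusted p = 0.0132). Vegfb (0.68 ± 0.25), Vegfd (1.17 ± 0.44), the lymphatic receptor Flt4 (0.86 ± 0.34) and the coreceptors Nrp1 (0.87 ± 0.41) and Nrp2 (-0.78 ± 0.33) were not called, with adjusted p from 0.0593 (Vegfb) to 0.123 (Nrp1). Of 5 other angiopoietin and Tie genes, Tie1 (1.03 ± 0.33, adjusted p = 0.0365) and the Tek agonist Angpt1 (1.15 ± 0.40, adjusted p = 0.0484) were called higher, and Foxo1, a transcription factor that Tek signaling holds inactive, was called lower (-0.93 ± 0.19, adjusted p = 0.00812). Foxo1 was at 97.8 ± 6.19 CPM in WT PBS and 51.4 ± 3.55 in WT BLM skin. The phosphatase gene Ptprb (0.60 ± 0.35) and Angpt4 (0.46 ± 0.57) were not called. Tie1 and Ptprb stand in the endothelial list as well.

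**Figure D4:**
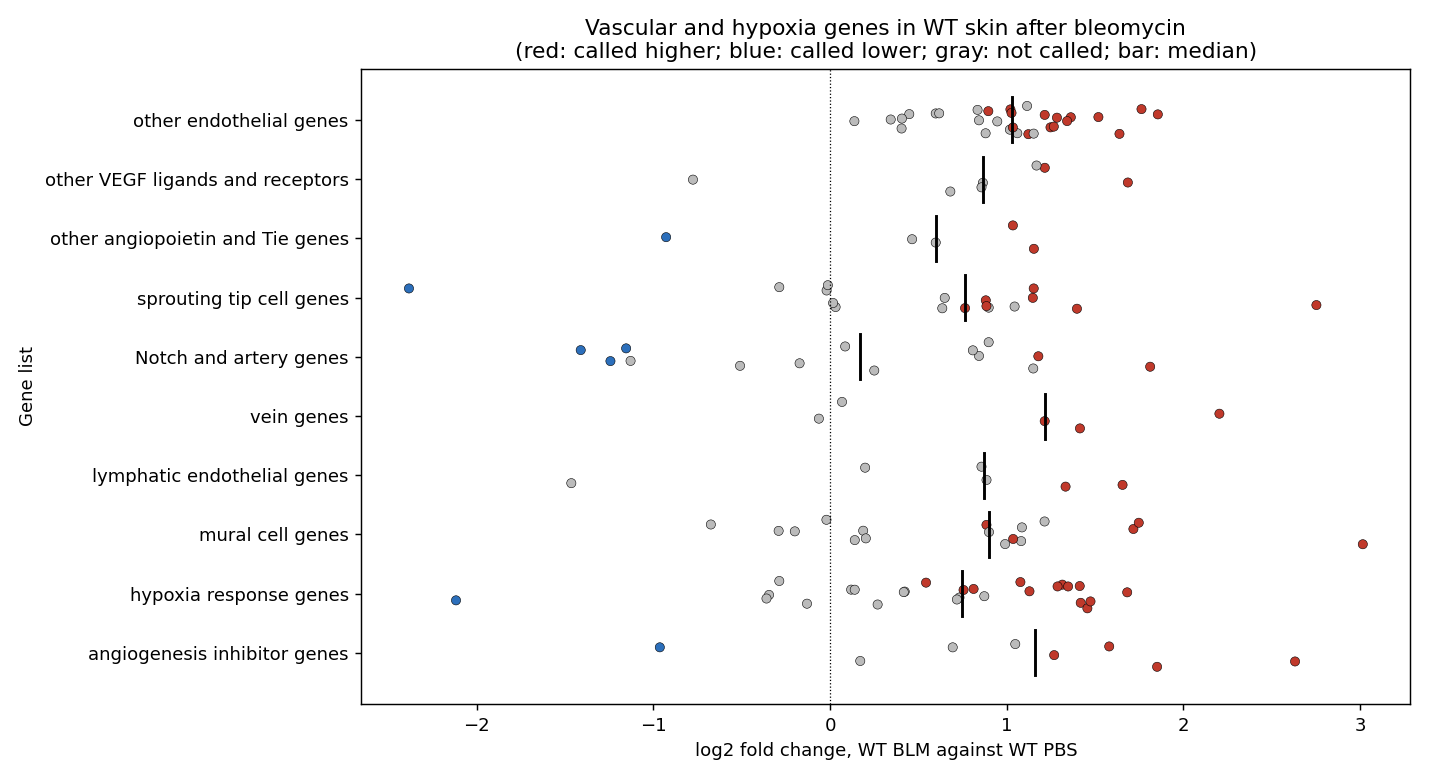
Log2 fold changes of WT BLM against WT PBS for the genes of 10 vascular and hypoxia lists, 1 point per gene. Red points were called higher, blue points lower and gray points neither, and bars are medians. All 30 other endothelial genes lie above 0, with 15 called, while the Notch and artery genes lie on both sides.

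Of 17 genes of sprouting tip cells, 7 were called higher and 1 lower. Called highest were Plaur, the urokinase receptor (2.75 ± 0.37, adjusted p = 0.00329), the pericyte-recruiting ligand Pdgfb (1.40 ± 0.33, adjusted p = 0.0130) and Igfbp3 (1.15 ± 0.36, adjusted p = 0.0351), which was at -0.078 with the hair covariate. Unc5b, a guidance receptor found in endothelium and in hair follicles, was called lower (-2.38 ± 0.54, adjusted p = 0.0116), from 299 ± 25.2 CPM in WT PBS to 57.3 ± 12.6 in WT BLM skin. Of 14 Notch and artery genes, 2 were called higher and 3 lower. The endothelial members Gja5 (1.81 ± 0.40, adjusted p = 0.0108) and Notch4 (1.18 ± 0.28, adjusted p = 0.0131) were higher, while Notch1 (-1.41 ± 0.35, adjusted p = 0.0160), Jag1 (-1.24 ± 0.28, adjusted p = 0.0123) and Efnb2 (-1.15 ± 0.20, adjusted p = 0.00539), which epidermis and hair follicles also express, were lower. Notch1, Jag1, Efnb2 and Unc5b had their highest group mean in WT PBS skin. With the mean of the hair list as a covariate their log2 fold changes were -0.40, -0.36, -0.79 and -0.62, and none of the 4 was called. That fit called 9 of all genes, so a lost call is not particular to these 4. For the genes named here as called higher, the lowest value over the alternatives was -0.078 for Igfbp3 and 0.23 for Pdgfb. It was 0.93 for Notch4, 1.02 for Gja5 and 1.63 for Plaur.

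Of 5 vein genes, 3 were called higher: the leukocyte adhesion molecule Selp (2.20 ± 0.36, adjusted p = 0.00487), the venous transcription factor Nr2f2 (1.41 ± 0.39, adjusted p = 0.0230) and Vwf (1.21 ± 0.33, adjusted p = 0.0216). Ackr1 (-0.06) and Ephb4 (0.07) were near 0. Of 6 lymphatic genes tested, the lymphatic master regulator Prox1 (1.66 ± 0.27, adjusted p = 0.00477) and Pdpn (1.33 ± 0.25, adjusted p = 0.00642) were called higher, and Flt4 (0.86), Reln (0.89), Mmrn1 (0.20) and Lyve1 (-1.46) were not. Of 17 mural cell genes, which mark pericytes and smooth muscle around vessels, 5 were called higher. The highest were Des (3.01 ± 0.53, adjusted p = 0.00568), which skeletal muscle also expresses, and the pericyte genes Higd1b (1.75 ± 0.46, adjusted p = 0.0197) and Abcc9 (1.72 ± 0.45, adjusted p = 0.0187).

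Of 26 hypoxia response genes, 13 were called higher and 1 lower. Called highest were P4ha2, a collagen-modifying hydroxylase (1.68 ± 0.37, adjusted p = 0.0106), the mitophagy gene Bnip3 (1.47 ± 0.36, adjusted p = 0.0158) and the glycolytic enzyme gene Tpi1 (1.46 ± 0.31, adjusted p = 0.00949). Ero1l, an oxidase of protein folding, was called lower (-2.12 ± 0.67, adjusted p = 0.0351), and with the hair covariate it was at 0.23. Glycolytic genes are also abundant in skeletal muscle, of whose 10 marker genes 9 were called higher in the same comparison. Of 8 angiogenesis inhibitors, 4 were called higher, among them Thbs2 (2.63 ± 0.65, adjusted p = 0.0159), the endothelial feedback inhibitor Vash1 (1.85 ± 0.42, adjusted p = 0.0121) and Sema3a (1.58 ± 0.40, adjusted p = 0.0177), and Timp3 was called lower (-0.96 ± 0.31, adjusted p = 0.0360). Thrombospondin 1 (Thbs1, 1.05), Col18a1 (0.69) and Adamts1 (0.17) were not called, and Serpinf1 (1.27 ± 0.44, adjusted p = 0.0487) was.

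Over the 10 lists together, which hold 127 distinct genes tested, 52 genes were called higher and 7 lower in WT BLM against WT PBS. Of all 18311 genes, 3633 were called higher and 2589 lower. In KO BLM against KO PBS edgeR called 1, against 0.306% of all genes. This was Tagln, a smooth muscle cytoskeletal gene (0.86 ± 0.13, adjusted p = 0.0341). Of the 127, 29 were at an unadjusted p under 0.05, against 3665 of all 18311 genes. DESeq2 called 14, against 5.95% of all genes. Tagln was at 79.4 ± 8.46 CPM in KO PBS and 144 ± 9.40 in KO BLM skin, against 126 ± 10.5 in WT PBS and 110 ± 13.04 in WT BLM skin. In KO PBS against WT PBS edgeR called 0 of the 127 (29 unadjusted, 5 by DESeq2) and 51 without mouse 136, when it called 36.7% of all genes. Of all 18311 genes, 3727 were at an unadjusted p under 0.05 there, and DESeq2 called 3.69%. In KO BLM against WT BLM edgeR called 0 (12 unadjusted, 2 by DESeq2) and 7 without mouse 136, against 6.89% of all genes. Here 3043 of all 18311 genes were at an unadjusted p under 0.05, and DESeq2 called 2.99%. In the difference between the responses edgeR called 0 (44 unadjusted, 20 by DESeq2) and 54 without mouse 136, against 39.9% of all genes. For that difference 5687 of all 18311 genes were at an unadjusted p under 0.05, and DESeq2 called 17.8%.

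**Figure D5:**
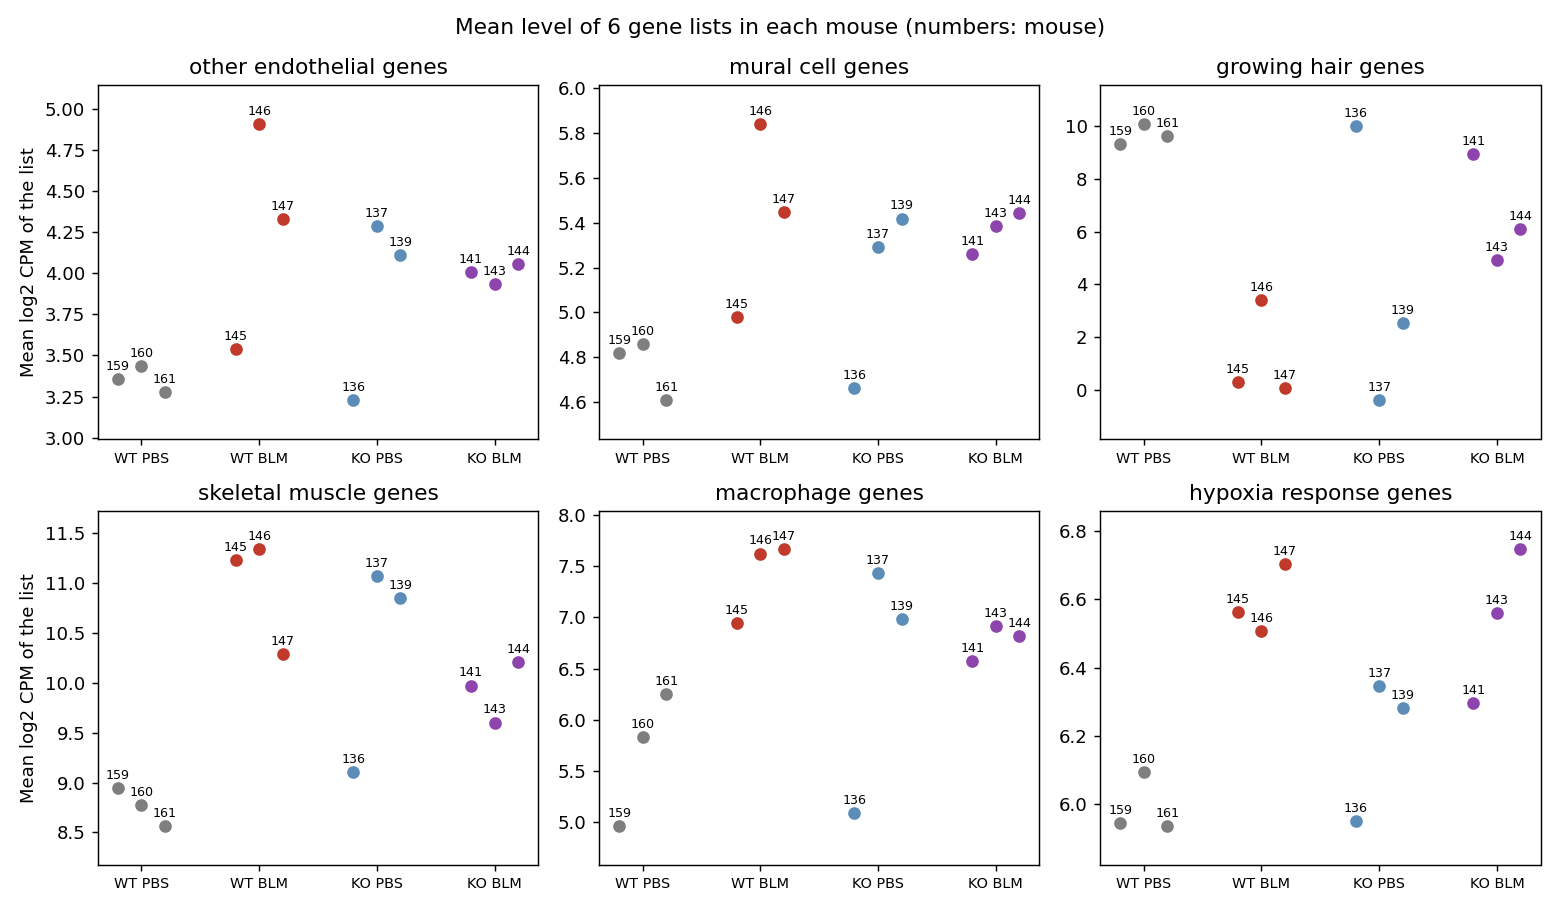
Mean log2 CPM of 6 gene lists in each mouse, labeled by mouse number. The y axes do not start at 0. KO PBS mouse 136 lies near the WT PBS mice in all 6 lists.

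Other tissue components moved with the same groups. In WT BLM against WT PBS 9 of 10 skeletal muscle genes, 8 of 10 macrophage genes, 5 of 10 fibroblast genes and 2 of 10 keratinocyte genes were called higher, and 15 of 29 growing hair genes and 1 fibroblast gene lower. Of all 18311 genes, 3633 were called higher and 2589 lower. The summed level of the 10 muscle genes was 5965 to 6626 CPM in WT PBS mice and 20210 to 40892 in WT BLM mice, and 7604 to 31368 and 11980 to 22305 in KO PBS and KO BLM mice. That of the 10 macrophage genes was 447 to 1053 CPM in WT PBS mice and 2428 to 3523 in WT BLM mice, and 477 to 2332 and 1651 to 2311 in KO PBS and KO BLM mice. The 29 hair genes summed to 53106 to 79690 CPM in WT PBS mice and 247 to 985 in WT BLM mice, and 268 to 85314 and 4024 to 40710 in KO PBS and KO BLM mice. Adipocyte genes, whose tissue is rich in capillaries, were not called (0 of 10, 0 unadjusted), and their mean log2 CPM ran from 5.43 to 7.58 in WT BLM mice, lowest in mouse 145. All 10 adipocyte genes had a lower estimate in KO BLM against KO PBS (median -1.38, 0 called, 4 unadjusted), and in KO PBS against WT PBS all 10 had a higher one (median 1.23, 0 called, 2 unadjusted). KO PBS mouse 136 had low muscle, macrophage and endothelial levels and high hair levels, as the WT PBS mice did. The part of muscle, macrophages, fat and hair in the endothelial differences was not tested beyond the hair covariate.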

How the data were processed

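Skin RNA of 12 mice, 3 in each of 4 groups, was measured by bulk RNA-seq. The authors deposited raw read counts per gene from stranded TruSeq libraries read on a NextSeq instrument. The submitters' processing notes name GRCm38.p6 and MultiQC 1.7, and the aligner, the counting tool and its use of strand are not given in the sources used here. A gene and an antisense partner may therefore share counts.

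Genes with enough counts were kept with edgeR's filterByExpr (minimum count 10, minimum total 15) and scaled by TMM. The 4 groups were fitted in 1 quasi-likelihood model (edgeR 4.0.16, limma 3.58.1, R 4.3.3), with a call at a Benjamini-Hochberg adjusted p under 0.05 over all genes tested. The fit had a common biological coefficient of variation of 34.9%. The SE of a log2 fold change was its size divided by the square root of F. Log2 CPM used a prior count of 2. DESeq2 1.42.0 was an alternative, as were other scalings and filters, leaving out each mouse, a covariate for hair (its list averaged on the log2 CPM scale) and leaving out mice 136 and 141 together. The steps were tested on simulated data.

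The genes and lists were chosen with earlier results of these data known. Named from each vascular and hypoxia list were up to 3 genes called higher and 3 called lower in WT by size of change, with a mean of at least 1 CPM, and every gene of lists with 8 or fewer tested. In other comparisons every called list gene was named. Other tissues were followed by lists of hair, keratinocyte, fibroblast, macrophage, muscle and adipocyte genes. Likeness was ranked for Cdh5, Vegfa, Apln and Esm1 by the root mean square difference of centered log2 CPM. Genes named by a model, clone or identifier number, names with the ending for pseudogenes and symbols in capitals only were left out of that ranking. Gene models were from GENCODE M21 and promoters from RefSeq, and motifs and figures were made with Python 3.11.15 and matplotlib 3.10.9. Each sample was a separate mouse, and no 2 libraries of the same group agreed within sampling noise.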

Additional observations from a re-analysis of the deposited data

How the results depend on the processing

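In WT BLM against WT PBS, 7 of the 10 vascular genes, 15 of the 30 other endothelial genes and 14 of the 26 hypoxia genes were called. The same fit called 34% of all genes. Leaving out 1 mouse gave 3 to 7, 3 to 21 and 8 to 15, in fits that called 13.9% to 45.7% of all genes. With the hair covariate each count was 0. With that covariate Igfbp3 (-0.078), Egln1 (-0.054) and Ero1l (0.23) also turned direction on the log2 scale. Treatment and hair content moved together in WT mice, and few genes were called by that fit at all (9), so it cannot tell them apart. In KO BLM against KO PBS 1 of the 10 was called, against 0.306% of all genes. There were 3 under DESeq2 and 2 with the hair covariate or without mice 136 and 141. Those fits called 5.95%, 9.38% and 22.3% of all genes. There were 0 under RLE or upper-quartile normalization, with a filter at a mean of 1 CPM or with only the 2 groups in the fit, which called 0% to 0.263%. Leaving out 1 mouse gave 0 to 2, in fits that called 0% to 14% of all genes. Of the other endothelial genes 1 was called, as lower, without mice 136 and 141, against 22.3% of all genes. In KO PBS against WT PBS leaving out 1 mouse gave 0 to 2 of the 10 and 0 to 12 of the 30, and leaving out mice 136 and 141 gave 2 and 11. The fits without mouse 136, and without mice 136 and 141, called 36.7% and 40.9% of all genes. For the difference between the responses these were 0 to 2 and 0 to 13, with 2 and 9 without mice 136 and 141, and DESeq2 called 5 of the 30. Here the fits without mouse 136, and without mice 136 and 141, called 39.9% and 38.6% of all genes, and DESeq2 called 17.8%. In KO BLM against WT BLM 0 of the 10 and 0 of the 30 were called under each of the 20 alternatives, which called 0.0267% to 6.89% of all genes. Where the cause of a change is not named here, it was not tested. Of the 10, none of the called estimates turned direction, but each lost its call under at least 1 alternative. Among those not called, 1 turned direction in WT (Tek), 3 in KO (Pecam1, Cdh5, Flt1), 3 in KO PBS against WT PBS, 4 in KO BLM against WT BLM and 5 in the difference between the responses. Of the 59 called list genes in WT, 56 kept their direction, and 35 lost their call under some alternative other than the hair covariate. No paired analysis was possible because every mouse has its own number. With 3 mice in a group and this spread between them, small differences could not be detected, and Esm1, at about 1 CPM in PBS skin, rests on few counts.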
